A study of Mus with 8 samples.

Results

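The genes of de novo lipogenesis, the pathway that builds fatty acids from acetyl-CoA, were followed by their RNA in 3T3-L1 cells before and after induction of adipogenesis, with and without down-regulation of the homeodomain transcription factor Prep1. The 10 genes were chosen by name and function: Acly, Acaca, Fasn, Elovl6, Scd1, Scd2, Me1, Srebf1, Mlxipl and Thrsp. All 10 were present among the 24013 genes of the count table, and 9 of them were among the 13339 genes tested, since Mlxipl did not pass the filter on low counts. 3T3-L1 is an established mouse preadipocyte line that turns into fat cells when treated with inducing hormones. Control cells (C cells) carried a scrambled shRNA and Prep1 down-regulated cells (P cells) an shRNA against Prep1. Both came from pLKO.1-based lentiviral infection and puromycin selection. The P cells are a knockdown and not a knockout, made with 1 of the 2 Prep1 shRNAs of the study. Cells of both kinds were collected 2 days before induction (day −2), in medium with BCS serum, and 24 h after it (day 1), in medium with dexamethasone, 3-isobutyl-1-methylxanthine, insulin and FBS. Each of the 4 groups had 2 biological replicas, 8 libraries in all. The effects of the hormones, of the change of serum and of the days at confluence cannot be told apart in a comparison of day 1 with day −2.

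In this pathway citrate leaves the mitochondria and is cleaved to cytosolic acetyl-CoA, which is carboxylated to malonyl-CoA and condensed into palmitate with the help of NADPH. Palmitate is then elongated and desaturated before it enters triglycerides and phospholipids. In fat and liver the pathway is known to be switched on by insulin through SREBP1c and by glucose through ChREBP, and in 3T3-L1 cells its enzymes are known as markers of the late fat cell.

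The libraries held 20428816 to 27614353 counts. Levels are given as CPM, counts put on a common library size after TMM scaling, which makes the bulk of genes comparable between libraries. They are not divided by transcript length and are therefore compared between samples only, not between genes. Pknox1, which encodes Prep1, was at 28.1 and 26.5 CPM in the C libraries against 17.3 and 18.3 CPM in the P libraries at day −2. At day 1 it was at 38.1 and 36.5 CPM in C and at 23.6 and 23.8 CPM in P cells, so it was lower in every P library of either day, by log2 ratios of −0.62 ± 0.14 and −0.65 ± 0.14 (edgeR adjusted p = 0.0558 and 0.0575). Replicate 1 of P cells at day −2 stood apart from the others: its log2 differences from replicate 2 had an SD of 0.80 over 5600 genes, against 0.12 to 0.26 for the other pairs. Its summed level of 10 preadipocyte and fibroblast markers was 70396 CPM, against 12401 to 21587 CPM in the other 7 libraries. Most of that sum came from the collagen genes Col1a1, Col1a2 and Col3a1, at 23560, 28501 and 15766 CPM. The other markers did not all go with them: Pdgfrb and Thy1 were highest in this library (542 and 941 CPM), whereas Ly6a was lowest (27.6 CPM). The part of these values in the results on P cells at day −2 was not tested. The log2 ratios of single members that use this library are also given without it. Markers of macrophages, endothelium, skeletal muscle, epithelium and liver summed to at most 24.7 CPM per list in any library. The summed level of 10 mature fat cell markers was 61.2 and 60.7 CPM in C and 217 and 223 CPM in P cells at day −2. At day 1 it was 130 and 136 CPM in C and 558 and 519 CPM in P cells. Most of this sum was Lpl, at 58.6 and 57.7 CPM in C and 183 and 200 CPM in P cells at day −2. At day 1 Lpl was at 127 and 133 CPM in C and 417 and 375 CPM in P cells. In C cells 5 of the 9 markers tested had a positive log2 ratio of day 1 to day −2 and 4 a negative one. Of the 9 of these markers that passed the filter on low counts, 4 had under 10 counts in every library outside P cells at day 1, so no count of calls is given for them.

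**Figure D1:**
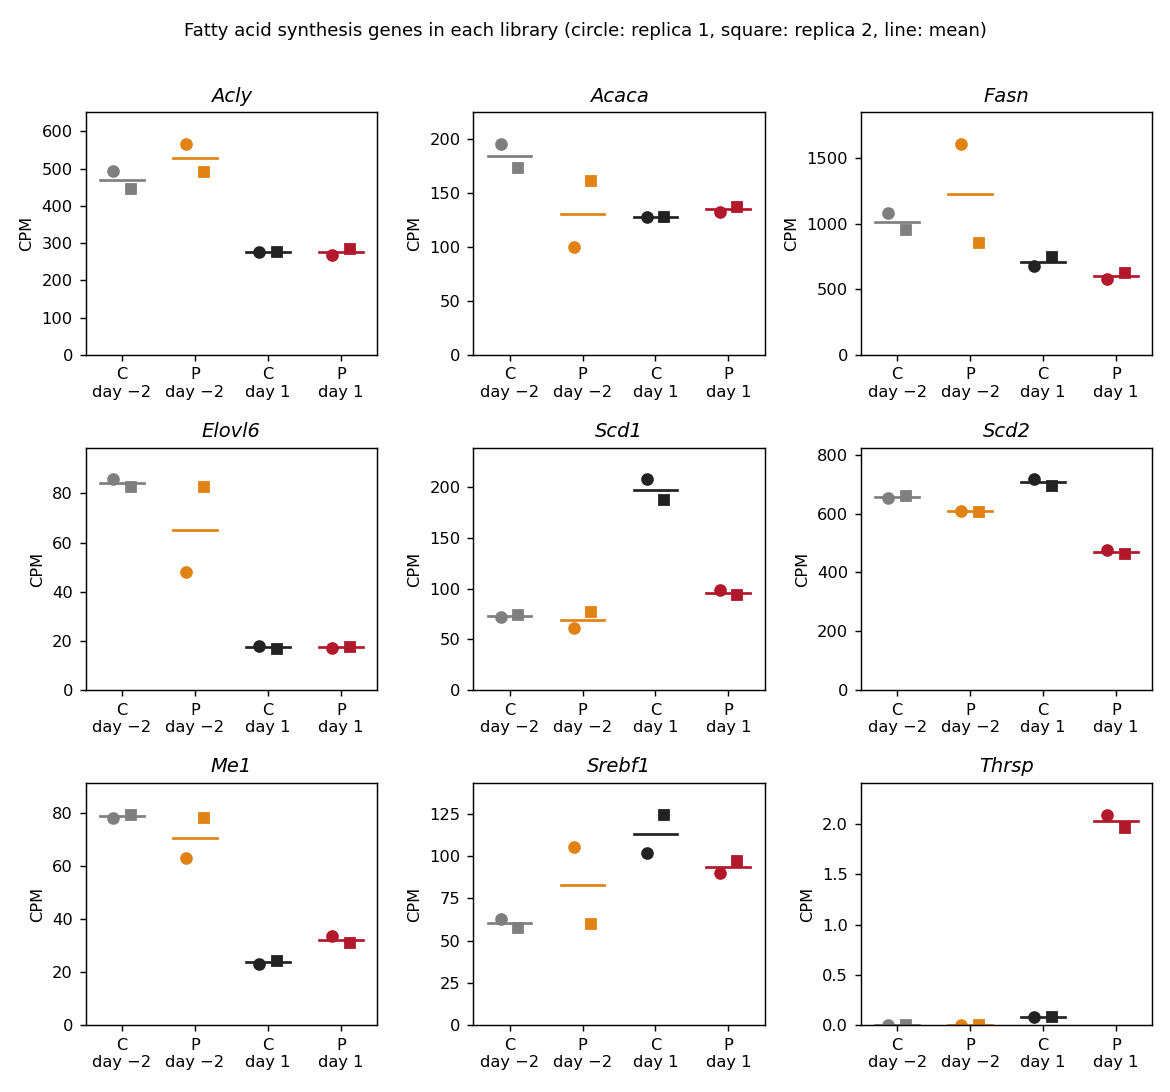
Level in CPM (y axis, from 0) of the 9 members tested in each of the 8 libraries, by group on the x axis. Circles are replicate 1, squares replicate 2 and lines the mean of the 2 libraries. Scd1 separates the C libraries of day 1 (208 and 187 CPM) from all others, Elovl6 and Me1 separate the days, and the replicas of P cells at day −2 lie apart for Fasn, Acaca, Elovl6 and Srebf1.

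The lipogenic genes did not move together on the first day of induction. A gene was called at an adjusted p under 0.1 (edgeR quasi-likelihood test, Benjamini-Hochberg over all genes tested) with a ratio over 2 or under 0.5. Thrsp had 0 counts at day −2 and passed the filter through the P libraries of day 1, so its test was fixed by the filter, and it is left out of the counts here. In C cells 3 of the other 8 members were called, Scd1 as higher and Elovl6 and Me1 as lower. Among all genes 20.4% were called, 10.7% higher and 9.68% lower. In P cells 3 of 8 were called, Fasn, Elovl6 and Me1 as lower, against 18% of all genes, 7.65% higher and 10.4% lower. The median log2 ratio of the 8 members was −0.52 in C and −0.66 in P cells, where that of all genes was −0.01 and 0.02. The median in P cells uses replicate 1 of day −2 and was not computed without it. Without that library the log2 ratio in P cells was −0.51 for Fasn in place of −1.03 and −0.38 for Scd2 in place of −0.37. No order of the medians of C and P cells is therefore read. With library totals in place of TMM the median of all genes moved to −0.11 in C and 0.19 in P cells. Under that scaling 1 of the 8 members was called in P cells, Elovl6 as lower, and the share of higher calls among all genes called in P cells was 54.5% in place of 42.4%. The summed level of the 10 members was 2622 ± 140 CPM in C cells at day −2 and 2171 ± 32.8 CPM at day 1 (SD, n = 2). In P cells it was 2782 ± 531 CPM at day −2 and 1724 ± 35.4 CPM at day 1 (SD, n = 2). The P libraries of day −2 had 3158 CPM (replicate 1) and 2407 CPM (replicate 2). In RNA of whole cultures, fewer cells that express a gene and less RNA per cell cannot be told apart. The libraries of 2 groups lay apart without overlap for most genes tested, so this is not particular to the members. Between the days it held for 77.7% of all genes tested in C and 60.6% in P cells. Between P and C cells it held for 53.8% at day −2 and 60.5% at day 1.

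Acly encodes ATP citrate lyase, which cleaves citrate to acetyl-CoA. Its level was 495 and 444 CPM in C and 566 and 492 CPM in P cells at day −2. After induction it was 276 and 275 CPM in C and 268 and 284 CPM in P cells. Every library of day 1 thus lay below every library of day −2, and the cell types overlapped on day 1. The log2 ratio of day 1 to day −2 was −0.77 ± 0.14 (SE, n = 2 per group, edgeR adjusted p = 0.00987) in C and −0.94 ± 0.15 (adjusted p = 0.00591) in P cells. Both passed the threshold on p without reaching a 2-fold change, except that the P cells reached −1.04 when replicate 2 of day −2 was left out. Without replicate 1 of that group the value was −0.84.

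Acaca encodes acetyl-CoA carboxylase 1, which makes malonyl-CoA in the committed step of the pathway. It was at 195 and 173 CPM in C cells at day −2 and at 128 CPM in each C library at day 1. In P cells it was at 99.9 and 161 CPM at day −2 and at 133 and 137 CPM at day 1. The day 1 libraries of all cells were thus close to each other, while those of P cells at day −2 lay on either side of them. The log2 ratio of day 1 to day −2 was −0.53 ± 0.23 in C (edgeR adjusted p = 0.131) and 0.05 ± 0.23 in P cells (adjusted p = 0.900). Without replicate 1 of P cells at day −2 the latter was −0.27 (adjusted p = 0.0919), the opposite direction.

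Fasn encodes fatty acid synthase, the multienzyme that assembles palmitate. It was at 1080 and 951 CPM in C and at 1605 and 849 CPM in P cells at day −2. The day 1 libraries had 678 and 742 CPM in C and 580 and 624 CPM in P cells, below the libraries of day −2 in either cell type. The decrease was called in P cells (log2 ratio −1.03 ± 0.29, SE, n = 2 per group, edgeR adjusted p = 0.0465) and not in C cells (−0.52 ± 0.29, adjusted p = 0.227). The call in P cells was lost in 6 of 17 alternatives. Without the library at 1605 CPM the log2 ratio was −0.51 (adjusted p = 0.0160), short of a 2-fold change. Without replicate 1 or replicate 2 of P cells at day 1 the adjusted p was 0.228 or 0.200.

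**Figure D2:**
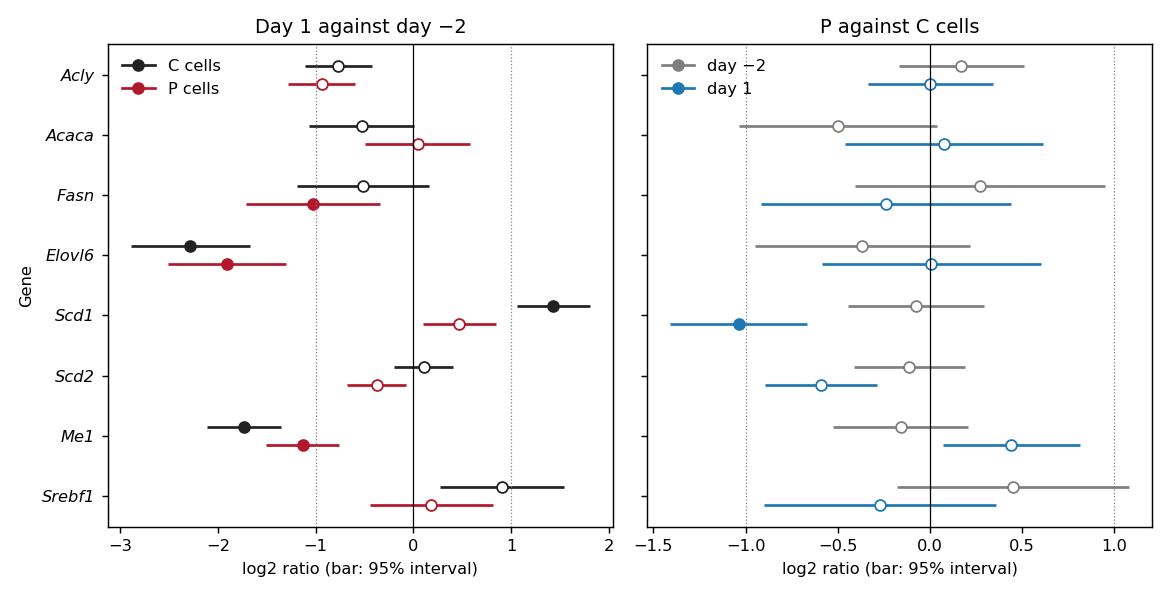
Log2 ratios (x axis) of 8 members (y axis) with 95% intervals from the edgeR fit, for day 1 against day −2 on the left and for P against C cells on the right. Filled points were called and dotted lines mark a 2-fold change. Elovl6 and Me1 lie left of the 2-fold line in both cell types, Scd1 rises past it in C cells at 1.43, and Scd1 is the only filled point on the right, at −1.04 on day 1. Thrsp and Mlxipl are left out because of their low counts.

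Elovl6 encodes the elongase that extends palmitate to stearate, and it showed the largest decrease among the members in both cell types. It was at 85.7 and 82.7 CPM in C and at 48.0 and 82.5 CPM in P cells at day −2. At day 1 all 4 libraries were alike, with 17.8 and 16.9 CPM in C and 17.3 and 17.6 CPM in P cells. The log2 ratio of day 1 to day −2 was −2.28 ± 0.26 in C (95% interval −2.89 to −1.67, edgeR adjusted p = 0.00137), a 4.85-fold decrease. In P cells it was −1.91 ± 0.26 (adjusted p = 0.00344), and −2.25 without replicate 1 of P cells at day −2.

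Scd1 and Scd2 encode stearoyl-CoA desaturases, which make oleate and palmitoleate. Scd1 is the isoform known to be abundant in mature fat cells and Scd2 that of preadipocytes and brain. Scd1 was at 72.0 and 74.4 CPM in C and at 61.7 and 77.1 CPM in P cells at day −2, where the groups overlapped. On day 1 it reached 208 and 187 CPM in C cells but 98.8 and 93.6 CPM in P cells. All day 1 libraries lay above all day −2 libraries, and the C libraries of day 1 lay far above the P libraries. The increase was 2.70-fold in C cells (log2 ratio 1.43 ± 0.16, SE, n = 2 per group, edgeR adjusted p = 0.00125). In P cells the log2 ratio was 0.47 ± 0.16 (adjusted p = 0.0753), under a 2-fold change. It was 0.31 (adjusted p = 0.0573) without replicate 1 and 0.64 without replicate 2 of P cells at day −2.

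Scd2 was at 651 and 661 CPM in C and at 609 and 606 CPM in P cells at day −2. It was at 716 and 695 CPM in C and at 476 and 462 CPM in P cells at day 1. The C libraries of day 1 were the highest and the P libraries of day 1 the lowest of all 8. The log2 ratio of day 1 to day −2 was 0.11 ± 0.13 in C (edgeR adjusted p = 0.586) and −0.37 ± 0.13 in P cells (adjusted p = 0.0807), and neither was called. The latter was −0.38 without replicate 1 of P cells at day −2. With library totals as the scaling, the value in C cells was −0.01, the opposite sign.

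The share of Scd1 in the sum of Scd1 and Scd2 counts needs no scaling between libraries. It was 9.96% and 10.1% in C and 9.20% and 11.3% in P cells at day −2, and rose to 22.5% and 21.2% in C and to 17.2% and 16.8% in P cells at day 1. Day 1 thus lay above day −2 in both cell types, and C above P cells on day 1. The means were 21.9% ± 0.916 in C and 17.0% ± 0.260 in P cells (SD, n = 2), but an exact permutation test of 2 against 2 libraries cannot give a p below 0.333. In the reference annotation the paralogs Scd3, Scd2, Scd4 and Scd1 follow each other as neighbouring genes. How reads that match more than 1 of them were counted is not stated, so the split between Scd1 and Scd2 carries that uncertainty.

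**Figure D3:**
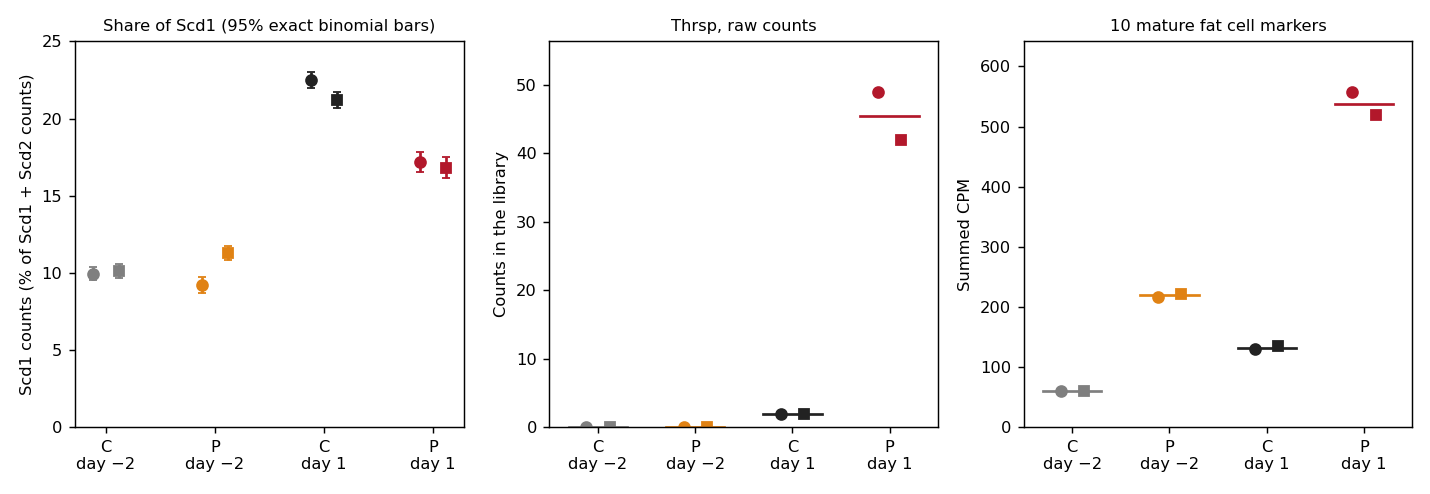
Left: share of Scd1 in the Scd1 and Scd2 counts of each library (percent, with 95% exact binomial intervals that cover counting error only). Middle: raw Thrsp counts of each library. Right: summed CPM of 10 mature fat cell markers, most of it from Lpl. The x axis gives the group, circles replicate 1, squares replicate 2 and lines the mean. The Scd1 share is highest in C cells at day 1, whereas Thrsp (49 and 42 counts) and the fat cell markers (558 and 519 CPM) are highest in P cells at day 1.

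Me1 encodes the cytosolic malic enzyme, which makes NADPH for fatty acid synthesis. It was at 78.3 and 79.4 CPM in C and at 62.9 and 78.2 CPM in P cells at day −2. After induction the C libraries had 23.1 and 24.3 CPM and the P libraries 33.5 and 30.9 CPM, below all libraries of day −2. It fell 3.32-fold in C cells (log2 ratio −1.73 ± 0.16, edgeR adjusted p = 6.3e-04) and 2.19-fold in P cells (−1.13 ± 0.16, adjusted p = 0.00401). The 2 P libraries of day 1 lay above the 2 C libraries, with a log2 ratio of P to C of 0.44 ± 0.16 that did not pass the test (adjusted p = 0.219). Without replicate 2 of P cells at day −2, the ratio of day 1 to day −2 in P cells was −0.97 on the log2 scale, under a 2-fold change, and without replicate 1 it was −1.29. With library totals it was −0.97 as well.

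Srebf1 encodes SREBP1, the sterol regulatory element binding protein that activates the lipogenic enzymes. The counts are per gene, so its isoforms 1a and 1c could not be told apart. It was at 63.0 and 57.8 CPM in C and at 105 and 60.0 CPM in P cells at day −2. The day 1 levels were 102 and 124 CPM in C and 90.2 and 97.4 CPM in P cells. The C libraries thus moved up with induction without overlap, and the P libraries of day 1 lay between the replicas of day −2. The log2 ratio of day 1 to day −2 was 0.90 ± 0.27 in C cells (edgeR adjusted p = 0.0478), short of a 2-fold change. It was 0.18 ± 0.27 in P cells (adjusted p = 0.647) and 0.64 (adjusted p = 0.0107) without replicate 1 of P cells at day −2. Leaving out replicate 1 of C cells at day 1 gave 1.07 in C cells (adjusted p = 0.0962), which passed both thresholds. In C cells Srebf1 thus had a positive log2 ratio where Acly, Elovl6 and Me1 had negative ones, each of the 4 at an adjusted p under 0.1.

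Mlxipl encodes ChREBP, the carbohydrate response element binding protein. It had 10 and 5 counts in C and 1 and 10 counts in P cells at day −2, and 1 and 3 counts in C and 8 and 10 counts in P cells at day 1. These counts are too low for a comparison, and no test was made of it.

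Thrsp encodes Spot 14, a nuclear and cytosolic protein known to follow lipogenic activity. It had 0 counts in all 4 libraries of day −2, where 3 counts, the limit that a count of 0 allows, correspond to 0.107 to 0.160 CPM. At day 1 it had 2 counts in each C library and 49 and 42 counts in the P libraries (2.09 and 1.96 CPM). It was thus seen above a few counts only in P cells at day 1. In P cells the level of day 1 was at least 15.2-fold higher than the limit of 3 counts per library at day −2. In C cells there were 4 counts against 0, and no fold can be given. At day 1 the ratio of P to C cells was 25.6 (95% exact Poisson interval 9.67 to 96.0, counting error only). Since these counts alone brought the gene past the filter, they are given as a description with no test.

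P cells were then compared with C cells on each day, to ask whether Prep1 down-regulation alone, or in induced cells, moved the lipogenic genes. At day −2 none of the 8 members other than Thrsp was called by edgeR, none had an unadjusted p under 0.05, and DESeq2 called none. Of all genes edgeR called 6.98%, 4.83% higher and 2.15% lower, and DESeq2 called 9.48%. An unadjusted p under 0.05 (edgeR) was found for 3366 of the 13339 genes tested. With library totals the median of all genes was −0.18 and the share of higher calls 55.4% in place of 69.2%. The log2 ratios of P to C ranged from −0.50 ± 0.23 for Acaca (adjusted p = 0.222) to 0.45 ± 0.27 for Srebf1 (adjusted p = 0.316). The 95% interval was −0.41 to 0.19 for Scd2, −0.45 to 0.29 for Scd1, −0.17 to 0.51 for Acly and −0.53 to 0.21 for Me1. A 2-fold difference lay outside these intervals. It also lay outside those of Elovl6 (−0.95 to 0.22) and Fasn (−0.40 to 0.95), but close to their ends. The intervals of Acaca (−1.03 to 0.04) and Srebf1 (−0.18 to 1.08) reached past a 2-fold difference. All these intervals use a spread between replicas estimated over all 4 groups, and the P libraries of day −2 differed more than the other pairs. The intervals may thus be too narrow here, and a 2-fold difference is not read as excluded. Without replicate 1 of P cells the ratio of Fasn was −0.25 in place of 0.27, that of Srebf1 −0.01 in place of 0.45, that of Elovl6 −0.02 in place of −0.37 and that of Acaca −0.19 in place of −0.50. For Acly it was 0.07 in place of 0.17, for Scd1 0.08 in place of −0.08, for Me1 −0.01 in place of −0.16 and for Scd2 −0.11 in either fit. Other libraries left out moved some ratios away from 0. Leaving out each library in turn gave −0.88 to −0.19 for Acaca and −0.81 to −0.02 for Elovl6. It gave −0.25 to 0.66 for Fasn and −0.01 to 0.80 for Srebf1. The ranges were 0.07 to 0.27 for Acly, −0.25 to 0.08 for Scd1, −0.12 to −0.10 for Scd2 and −0.32 to −0.01 for Me1.

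**Figure D4:**
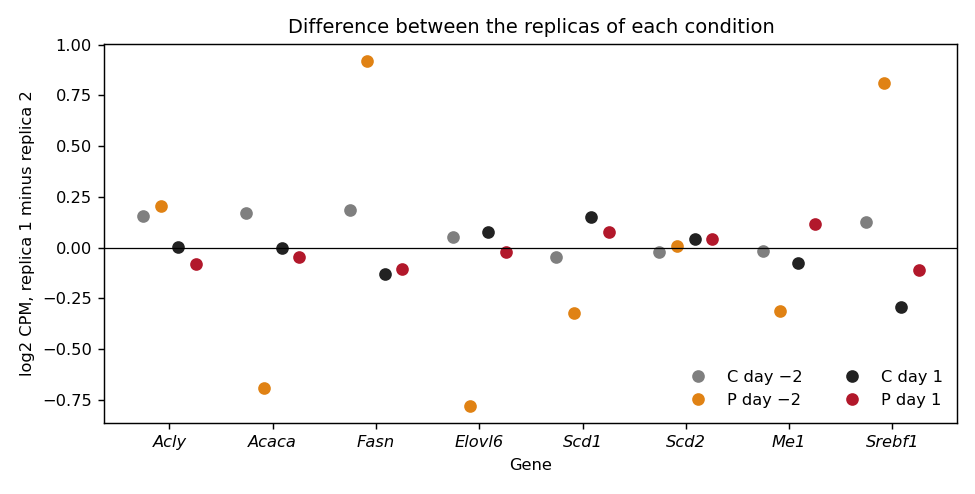
Difference of log2 CPM between replicate 1 and replicate 2 (y axis) for 8 members (x axis) in each of the 4 groups (colours). In P cells at day −2 Fasn (0.92) and Srebf1 (0.81) lie far above 0 and Acaca (−0.69) and Elovl6 (−0.78) far below it, while Scd2 (0.01) does not differ.

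The 2 libraries of P cells at day −2 did not scatter alike over the members. Replicate 1 was above replicate 2 by 0.92 on the log2 scale for Fasn and by 0.81 for Srebf1. It was below by 0.78 for Elovl6, by 0.69 for Acaca, by 0.32 for Scd1 and by 0.31 for Me1. Scd2 and Acly differed by 0.01 and 0.20. The median absolute difference over the members tested was 0.32 in this group and 0.05 to 0.08 in the other 3. The values of Acaca, Fasn, Elovl6 and Srebf1 in P cells at day −2 are therefore those with the least precision, and those of Scd2 and Acly the ones that depend least on the choice of library.

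At day 1 Scd1 was called lower in P than in C cells, 1 of the 8 members other than Thrsp, against 4.06% of all genes, 1.83% higher and 2.23% lower. Scd1 was 2.05-fold lower in P cells (log2 ratio −1.04 ± 0.16, 95% interval −1.41 to −0.67, edgeR adjusted p = 0.0194). Its direction held in every alternative, from −1.12 to −0.94, but its ratio lies close to the threshold of 2 and the call was lost in 5 of 17 alternatives. Leaving out any of the 4 libraries of day 1 gave an adjusted p of 0.136 to 0.223 for Scd1, and no member was then called. Leaving out replicate 1 of P cells at day −2 gave −1.06 for Scd1 (adjusted p = 9.3e-05). Scd2 was lower in both P libraries, by a log2 ratio of −0.59 ± 0.13 (adjusted p = 0.0591), short of a 2-fold change. Acly and Elovl6 had log2 ratios of 0.00 ± 0.14 (95% interval −0.34 to 0.34) and 0.01 ± 0.25 (−0.59 to 0.60), and Acaca 0.08 ± 0.23. Fasn was at −0.24 ± 0.29 (adjusted p = 0.811) and Srebf1 at −0.27 ± 0.27 (adjusted p = 0.749), and both P libraries lay below both C libraries for each. With library totals the median of all genes was 0.11, and Scd1 was at −0.94 (adjusted p = 0.0675) and not called. The higher summed level of mature fat cell markers in P cells at day 1, most of it from Lpl, thus stood beside a lower level of Scd1 and more Thrsp counts. The part of the fat cell markers in these values was not tested.

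Whether induction moved the members differently in P and in C cells was tested as the difference of the log2 ratios, at an adjusted p under 0.1. None of the 8 members other than Thrsp was called by edgeR, against 2.37% of all genes. At an unadjusted p under 0.05 (edgeR) there were 3, Scd1, Scd2 and Me1, against 1922 of all 13339 genes tested. DESeq2 called 2, Scd1 and Scd2, against 6.97% of all genes. The difference was −0.96 ± 0.22 for Scd1 (95% interval −1.49 to −0.44, adjusted p = 0.119) and −0.48 ± 0.18 for Scd2 (adjusted p = 0.309), that is a smaller rise or a decrease in P cells. For Me1 it was 0.60 ± 0.22 (adjusted p = 0.301), a smaller decrease in P cells. For Srebf1, Fasn and Acaca it was −0.72 ± 0.38, −0.51 ± 0.40 and 0.58 ± 0.32, with adjusted p of 0.395, 0.504 and 0.410. These were −0.28, −0.0072 and 0.24, and Me1 was at 0.43, when replicate 1 of P cells at day −2 was left out. Without replicate 1 of P cells at day −2, Scd1 (−1.14, adjusted p = 0.00171) and Scd2 (−0.50, adjusted p = 0.0674) passed the test, with 11.4% of all genes. Without replicate 2 of that group instead, 7 members passed (Scd1 at −0.79, adjusted p = 0.00195), but so did 62.5% of all genes. No estimate could be had for Thrsp, which had no counts at day −2.

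The neighbouring pathways were described with lists of genes by function, for each of which the count of calls is read beside the share among all genes given above. Of 15 genes that supply acetyl-CoA and NADPH, 2 rose in C cells, the pyruvate carboxylase gene Pcx (log2 ratio 3.37 ± 0.26, edgeR adjusted p = 3.1e-04) and the cytosolic isocitrate dehydrogenase gene Idh1 (1.10 ± 0.23, adjusted p = 0.0140). In P cells Pcx rose by 1.30 ± 0.24 (adjusted p = 0.0120, and 1.66 without replicate 1 of day −2) and the transketolase gene Tkt fell by 1.09 on the log2 scale (adjusted p = 0.0128), the latter by 0.80 and without a call when replicate 1 of P cells at day −2 was left out. The smaller rise of Pcx in P cells passed the test of the difference (−2.07 ± 0.34, adjusted p = 0.0469, and −1.74 without that library). Pcx was lower in P than in C cells at day 1 (−1.11 ± 0.24, adjusted p = 0.0595). The gene Acss2, whose enzyme makes acetyl-CoA from acetate, was higher in P cells at day −2 (1.62 ± 0.18, adjusted p = 0.00523, and 1.5 without replicate 1). The median log2 ratio of the list was −0.08 in C and −0.11 in P cells.

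Of 18 genes tested among 20 partners in synthesis, elongation and desaturation, 1 rose and 3 fell in C cells and 6 fell in P cells. Without replicate 1 of P cells at day −2, 4 fell and 1 rose in P cells. The polyunsaturated fatty acid desaturase gene Fads2 fell by 1.49 on the log2 scale in C (adjusted p = 0.00251, edgeR) and by 2.04 in P cells (adjusted p = 0.00107, and by 1.80 without replicate 1 of day −2). Fads1 fell by 1.33 in C (adjusted p = 7.5e-04) and Fads3 by 1.70 in P cells (adjusted p = 4.9e-04). Both also went down in the other cell type, Fads1 from a mean of 194 to 75.0 CPM in P cells and Fads3 from 108 to 57.8 CPM in C cells. The hydroxyacyl-CoA dehydratase gene Hacd2 rose by 1.78 ± 0.19 in C cells (adjusted p = 0.00118). Its paralog Hacd1 fell by 1.84 in P cells (adjusted p = 0.0220), or by 1.03 without replicate 1 of day −2, and was higher in P than in C cells at day −2 (1.41 ± 0.40, adjusted p = 0.0955), which was 0.60 and not called without that library. Cyb5a, the cytochrome b5 that passes electrons to the desaturases, was higher in P cells at day 1 (1.29 ± 0.21, adjusted p = 0.0246). At day −2 it was at 32.8 and 47.6 CPM in P against 26.8 and 25.5 CPM in C cells, without a call. Elovl4, a low-count gene outside the rule for names and picked after its values were seen, was the other gene that fell in C cells (−1.23 ± 0.30).

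Among 16 regulators of the SREBP, ChREBP and LXR systems, Txnip rose in both cell types, by 2.83 ± 0.14 in C (edgeR adjusted p = 7.8e-05) and by 1.14 ± 0.14 in P cells (adjusted p = 0.00214). Txnip encodes a thioredoxin-interacting protein and is a known ChREBP and MondoA target. Its smaller rise in P cells passed the test of the difference (−1.69 ± 0.19, adjusted p = 0.0130). Insig1, which encodes the protein that holds SREBPs in the endoplasmic reticulum, fell by 1.85 in C (adjusted p = 0.00193) and by 1.64 in P cells (adjusted p = 0.00386). Without replicate 1 of P cells at day −2 the changes in P cells were −1.92 for Insig1 and 1.08 for Txnip. Srebf2, which encodes SREBP2, fell by 1.70 in P cells (adjusted p = 0.00808), and by 1.20 without replicate 1 of P cells at day −2. The coactivator gene Ppargc1b, with few counts and picked after its values were seen, fell in C cells (−3.26 ± 0.55) and was higher in P than in C cells at day 1 (2.80 ± 0.56, adjusted p = 0.0461). The list's medians were 0.27 in C and 0.10 in P cells.

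Among the pathway lists, the medians farthest from 0 were those of the cholesterol synthesis and uptake targets of SREBP2. Of 17 genes tested, 12 fell in C and 16 in P cells, with medians of −1.49 and −1.98. Every one of the 17 had a negative ratio in either cell type. The farnesyl diphosphate synthase gene Fdps fell by 2.21 in C (adjusted p = 4.6e-04) and by 2.96 in P cells (adjusted p = 2.9e-04). Msmo1 fell by 2.05 in C (adjusted p = 0.0429) and Mvd by 2.44 in P cells (adjusted p = 0.00104). With replicate 1 of P cells at day −2 left out, Fdps fell by 2.70 and Mvd by 2.09 in P cells. The eighteenth gene, Hmgcs1, was listed at 0 in every library. At day −2 the mevalonate kinase gene Mvk was higher in P cells (1.04 ± 0.29, adjusted p = 0.0941), which was 0.53 and not called without replicate 1.

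**Figure D5:**
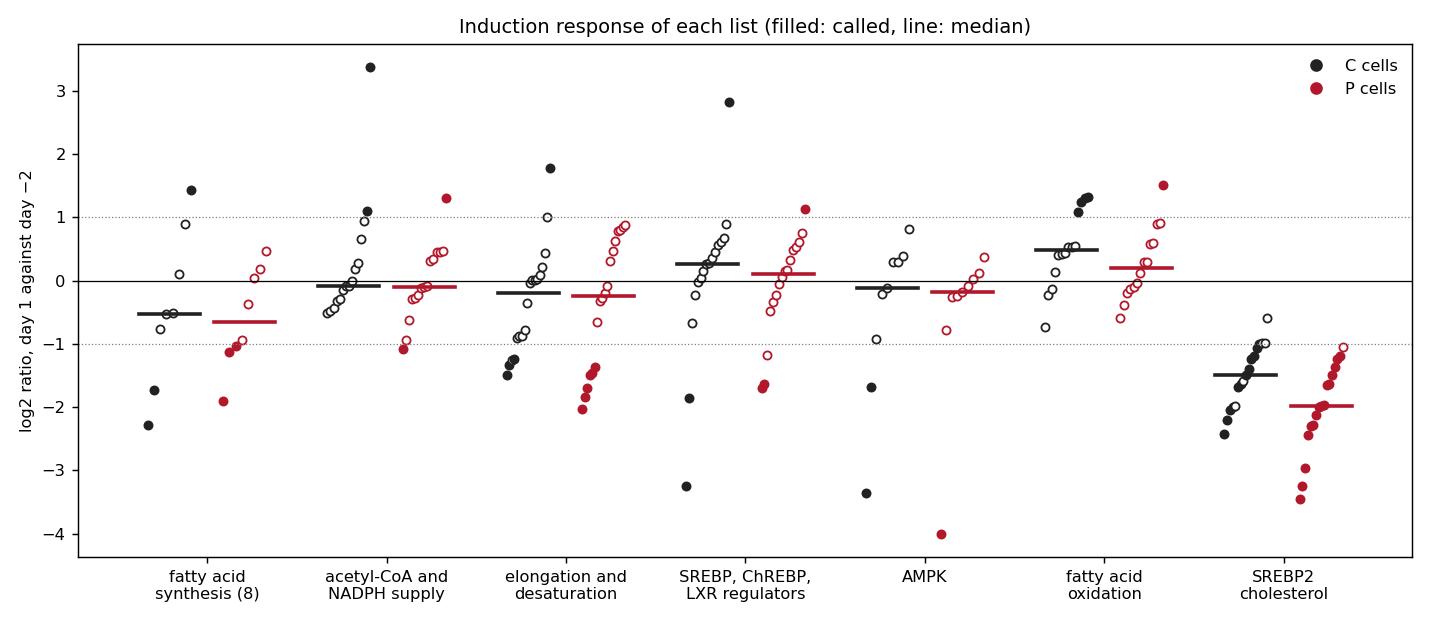
Log2 ratio of day 1 to day −2 (y axis) for each gene tested of 7 lists (x axis), in C cells (black) and P cells (red). Filled points were called, thick lines are medians and dotted lines a 2-fold change. The lipogenic list is shown over 8 members, without Thrsp, and has medians of −0.52 and −0.66, the latter with replicate 1 of P cells at day −2 included. The SREBP2 cholesterol list lies lowest, with medians of −1.49 and −1.98.

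Of 14 genes of mitochondrial fatty acid oxidation, 4 rose in C cells and 1 in P cells (2 without replicate 1 of P cells at day −2), with medians of 0.48 and 0.21. Acadm, the medium-chain acyl-CoA dehydrogenase, rose by 1.32 ± 0.29 in C (edgeR adjusted p = 0.0178) and by 1.51 ± 0.29 in P cells (adjusted p = 0.0138), or by 1.10 without replicate 1 of P cells at day −2. Mlycd, whose enzyme removes malonyl-CoA, rose by 1.30 ± 0.30 in C cells (adjusted p = 0.0218), and Cpt2 by 1.24 ± 0.15 (adjusted p = 0.00163). The fourth was Acadvl at 1.09 ± 0.14 (adjusted p = 0.00235), picked after its values were seen. The carnitine palmitoyltransferase gene Cpt1a was lower in P than in C cells at day 1 (−1.14 ± 0.16, adjusted p = 0.0140). At day −2 it was already at 59.4 and 73.8 CPM in P against 104 and 100 CPM in C cells, without a call. Of 9 genes of AMPK, the kinase that phosphorylates and inhibits acetyl-CoA carboxylase, Prkaa2 and Prkag3 were called lower in C cells and Prkag3 in P cells. Both are low-count genes outside the rule for names, and the medians of the list were −0.12 and −0.18.

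The patterns of single genes over the 8 libraries were compared by Pearson correlation of log2 CPM, given as a description, since the libraries share their depth scaling and fall into 2 days. Elovl6 and Me1 were most alike among the members (r = 0.97), followed by Acly with Me1 (0.92) and with Elovl6 (0.91), and Fasn with Acly (0.89). Scd1 ran against Me1 (−0.87) and Srebf1 against Elovl6 (−0.84). The correlations between members include replicate 1 of P cells at day −2 and were not computed without it. Among 8906 genes with a mean of at least 10 CPM, those most like Fasn were Cttnbp2nl (0.996), Pes1 (0.995), Tead2 (0.994), Smg5 (0.994) and Rcc2 (0.993). Those most like Srebf1 were Zfyve27 (0.998), Zgpat (0.996), Zfp516 (0.994), Lmbr1l (0.991) and Nynrin (0.991). Leaving out replicate 1 of P cells at day −2 left these correlations at 0.987 or above, but only 2 of the 5 genes stayed among the 5 most alike for Fasn and 2 of 5 for Srebf1.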

How the data were processed

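Total RNA of C and P cells at day −2 and day 1 (2 biological replicas each) was sequenced by the authors on an Ion Torrent system. Per the labels and the study's methods, the authors aligned reads to mm9 with TopHat v2.0.9 and deposited raw read counts per NCBI gene, made against the UCSC refGene table. How reads of paralogs or of overlapping genes were counted, and whether strand was used, is not given in the sources used here. Gene names were matched to NCBI RefSeq of another build, so no coordinates are given. Of 24013 gene IDs, 84 had no symbol.

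The counts were tested with edgeR 4.0.16 (limma 3.58.1, R 4.3.3) by the quasi-likelihood test on all 8 libraries, with the edgeR filter on low counts, TMM scaling and 1 mean per group. Adjusted p are Benjamini-Hochberg over 13339 genes. DESeq2 1.42.0, other scalings, filters and thresholds, the replicate number as a block and each library left out were the alternatives. Calls used an adjusted p under 0.1 and a ratio over 2 or under 0.5, and for the difference of responses the adjusted p alone. Scripts were tested on simulated data. Standard errors come from the fit. With 3 counts as the limit of a count of 0, intervals and limits cover counting error only. Libraries held 20428816 to 27614353 counts. The labels do not say which replicas were handled together. The p-values set the differences between groups against a spread between replicas estimated over all 4 groups, the wide pair of P cells at day −2 included.

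All 10 members are named. From each other pathway list up to 3 called genes per comparison with the largest ratios and a mean of at least 50 counts are named, and for Fasn and Srebf1 the 5 genes most correlated with each. The values of 1 gene that the rule names are not reported here. Marker lists covered mature fat cells, preadipocytes and fibroblasts, macrophages, endothelium, skeletal muscle, epithelium and liver. The likeness of patterns and the list counts without replicate 1 of P cells at day −2, and the medians without Thrsp, were alternatives chosen after seeing the data. The members and lists were chosen with earlier results of these data known.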

Additional observations from a re-analysis of the deposited data

Results flagged for a closer look

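Scd2 was picked out because induction moved its libraries in opposite directions in the cell types. Both C libraries of day 1 lay above both C libraries of day −2, and both P libraries of day 1 lay below both P libraries of day −2. Of all genes tested, 77.7% did not overlap between the days in C and 60.6% in P cells. The share that did so in opposite directions was not computed. The difference of the log2 ratios was −0.48 ± 0.18, and it did not pass the test over all genes (edgeR adjusted p = 0.309, unadjusted p = 0.0333). Scd2 passed with DESeq2 and without either library of P cells at day −2, but these fits called 930 genes (DESeq2), 1516 (without replicate 1) and 8332 (without replicate 2) of 13339, against 316.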

How the results depend on the processing

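Of 742 member values under alternatives, 671 kept their direction and side of the threshold, 29 lost the call, 19 gained it and 23 changed sign. The alternatives that change only a threshold reuse the main fit, so they could not change a direction. Thrsp, whose test was fixed by the filter, is part of this tally. Its 16 values for P against C cells at day −2, where it had no counts, and its 14 for the difference are all among the 671. They had no direction or no usable estimate to keep. Of the 29 lost calls, 11 were Thrsp for induction in C cells and 5 Thrsp for P against C cells at day 1. Without Thrsp, the number of members called after induction of P cells was 3, and 1 with library totals or 6 with no ratio threshold. For P against C cells at day 1 the number without Thrsp was 1, and 0 with library totals or 2 with no ratio threshold. The counts of members that follow include Thrsp. The number called after induction of P cells was 4, and 2 with library totals or 7 with no ratio threshold. For P against C cells at day 1 it was 2, and 1 with library totals, with at least 10 counts in every library (Thrsp then being untested) or with the replicate block. For the difference of responses it was 0, and 2 with DESeq2. Leaving out each library gave 3 to 4 members for induction in C, 3 to 4 in P cells, 0 to 0 for P against C at day −2, 0 to 2 at day 1 and 0 to 7 for the difference. The replicate numbers showed no clear pairing over all genes tested (correlations of deviations −0.36 to 0.21). Over the members tested these correlations were −0.91 to 0.53, and shared handling of replicas cannot be told from them. The block gave 3, 3, 0, 1 and 0 members in the 5 comparisons. With library totals, Scd2 in induced C cells was −0.0052, Acly was −0.025 for P against C at day −2 and 0.13 for the difference. For P against C at day 1 Acly was −0.022 with DESeq2 and with its size factors, −0.0098 with no filter and −0.0070 with at least 10 counts. Elovl6 was −0.017, −0.017, −0.0057 and −0.0023 there. Leaving out libraries gave Acaca −0.27 to 0.43 and Srebf1 −0.17 to 0.64 in induced P cells. For P against C at day −2 it gave Fasn −0.25 to 0.66, Scd1 −0.25 to 0.080 and Srebf1 −0.0065 to 0.80. At day 1 it gave Acly −0.038 to 0.043 and Elovl6 −0.039 to 0.018. The causes were not tested. Over all genes, calls for induced P cells were 2406, and 1159 with only the groups compared or 4192 with no ratio threshold. For induced C cells they were 2723, and 4743 with no ratio threshold. For P against C at day −2 they were 931, and 86 with only the groups compared, 597 with the block, 602 at an adjusted p under 0.05 and 1513 with no ratio threshold. At day 1 they were 542, and 838 with only the groups compared and 820 with no ratio threshold. For the difference they were 316, and 117 with the block, 174 at an adjusted p under 0.05 and 930 with DESeq2. Leaving out each library gave 1722 to 3194 calls for induced C, 1282 to 4925 for induced P cells, 182 to 4290 for P against C at day −2, 64 to 1003 at day 1 and 31 to 8332 for the difference. The highest of the last 4 came without replicate 2 of P cells at day −2. Levels per kilobase were not run, since exon lengths were not at hand. With 2 replicas per group, a library left out leaves a lone sample assumed to vary like the others. Thrsp and Mlxipl are limited by depth.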
